A study of Mus musculus with 14 samples.

Results

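Macrophages of the heart fall broadly into resident cells and cells recruited from blood monocytes, and 10 genes that mark these states were followed here through pressure overload and gene therapy in mouse ventricles. The genes, and the lists of related genes below, were chosen by name with earlier results of these data known. They comprise the resident markers Timd4, Lyve1, Folr2, Cd163 and Mrc1, the recruited or lipid-associated markers Ccr2, Trem2 and Gpnmb, and the general markers Adgre1 and Cx3cr1. All 10 were found among the 24972 genes of the table, and all 10 had enough signal to be tested.

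In the mouse heart, many resident macrophages are seeded before birth and renew themselves in place. They clear dying cells and debris, and they carry TIMD4, LYVE1 and FOLR2 in varying combinations. Monocytes enter the heart through the chemokine receptor CCR2 and turn into macrophages there, and injury or overload is known to raise this traffic. A lipid-associated state with TREM2 and GPNMB is known from several injured tissues, where such cells take up lipid and cell debris.

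Polyadenylated RNA was sequenced from whole ventricles of male C57BL/6N mice. TAC (transverse aortic constriction, a band that narrows the aorta) or sham surgery was done at 9 to 10 weeks of age, and 2 weeks later echocardiography chose 30 TAC mice with an ejection fraction of 40 to 60% and 10 sham mice with normal function. All groups then received AAV2/9, an adeno-associated virus, by tail vein (1e12 genomes in 100 ul), carrying JP2NT, the N-terminal part of the cardiomyocyte dyad protein junctophilin-2, or GFP as the control. Hearts were taken 8 weeks after surgery, 6 weeks after the virus. The groups were TAC+JP2NT (4 libraries), TAC+GFP (4 libraries), Sham+JP2NT (3 libraries) and Sham+GFP (3 libraries). The promoter in the vector is not given in the sources used here, nor is it stated whether each library is a separate mouse, so p-values measure the spread between these samples.

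The libraries held an estimated 8650189 to 14460609 reads. Replicates 1 and 2 of Sham+JP2NT differed by little more than counting noise and were counted as 1 sample, which leaves 13 samples. They are printed singly below, and the Sham+JP2NT means have n = 2. Jph2, the gene that the transgene derives from, had values of 6057 to 6759 in TAC+JP2NT hearts, 5904 to 6630 in TAC+GFP hearts, 6823 to 7145 in Sham+JP2NT hearts and 7670 to 8188 in Sham+GFP hearts. It was therefore not higher with JP2NT, and whether the authors' counting covers vector transcripts is not given in the sources used here. Ventricular muscle markers were abundant in every library, but relative to the Sham+GFP mean their summed level over 7 genes was 0.629 to 0.804 in TAC+JP2NT libraries, 0.561 to 0.665 in TAC+GFP libraries, 0.967 to 0.986 in Sham+JP2NT libraries and 0.981 to 1.01 in Sham+GFP libraries. The sum over 6 pericyte and smooth muscle markers was 0.756 to 0.903 in TAC+JP2NT libraries and 0.594 to 0.713 in TAC+GFP libraries, beside 0.985 to 1.02 in Sham+GFP libraries. The part of these shifts in the macrophage marker differences was not tested. Of the other blood cell markers, Ly6g, the defining neutrophil gene, was at 0 in every library.

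Values are the authors' scaled gene counts, rescaled here to be comparable between vectors, and are called normalised values. Fold changes are differences of group means of log2(value + 1), which understates changes of weakly expressed genes. A gene is said to rise or fall where limma's Benjamini-Hochberg adjusted p over all 13212 genes tested was under 0.05. In whole tissue, fewer cells of a type and less RNA per cell cannot be told apart.

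The first question was what pressure overload did to these markers under the control virus. In TAC+GFP against Sham+GFP hearts, 3 resident markers fell (Timd4, Cd163 and Folr2), and 2 markers of recruited or lipid-associated macrophages rose (Trem2 and Ccr2). The resident markers Lyve1 and Mrc1, the lipid-associated marker Gpnmb and the general markers Adgre1 and Cx3cr1 did not pass the test. That is 5 of 10 markers called, or 50%, beside 48.1% of all genes tested, so the share itself is that of the tissue at large. The 3 that fell stand beside 24.8% of all genes and the 2 that rose beside 23.3%. TAC+GFP and Sham+GFP did not overlap for 6 of the 10 markers, beside 53.1% of all genes: 3 lay wholly higher in TAC+GFP, beside 25.3%, and 3 wholly lower, beside 27.8%. The filter on low values asked for at least 10 in at least 3 samples, and Timd4 was 7.17, 7.13 and 7.24 in TAC+GFP replicates 1 to 3. Timd4 could pass through the groups where it was high, so its direction adds no support to these counts.

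**Figure D1:**
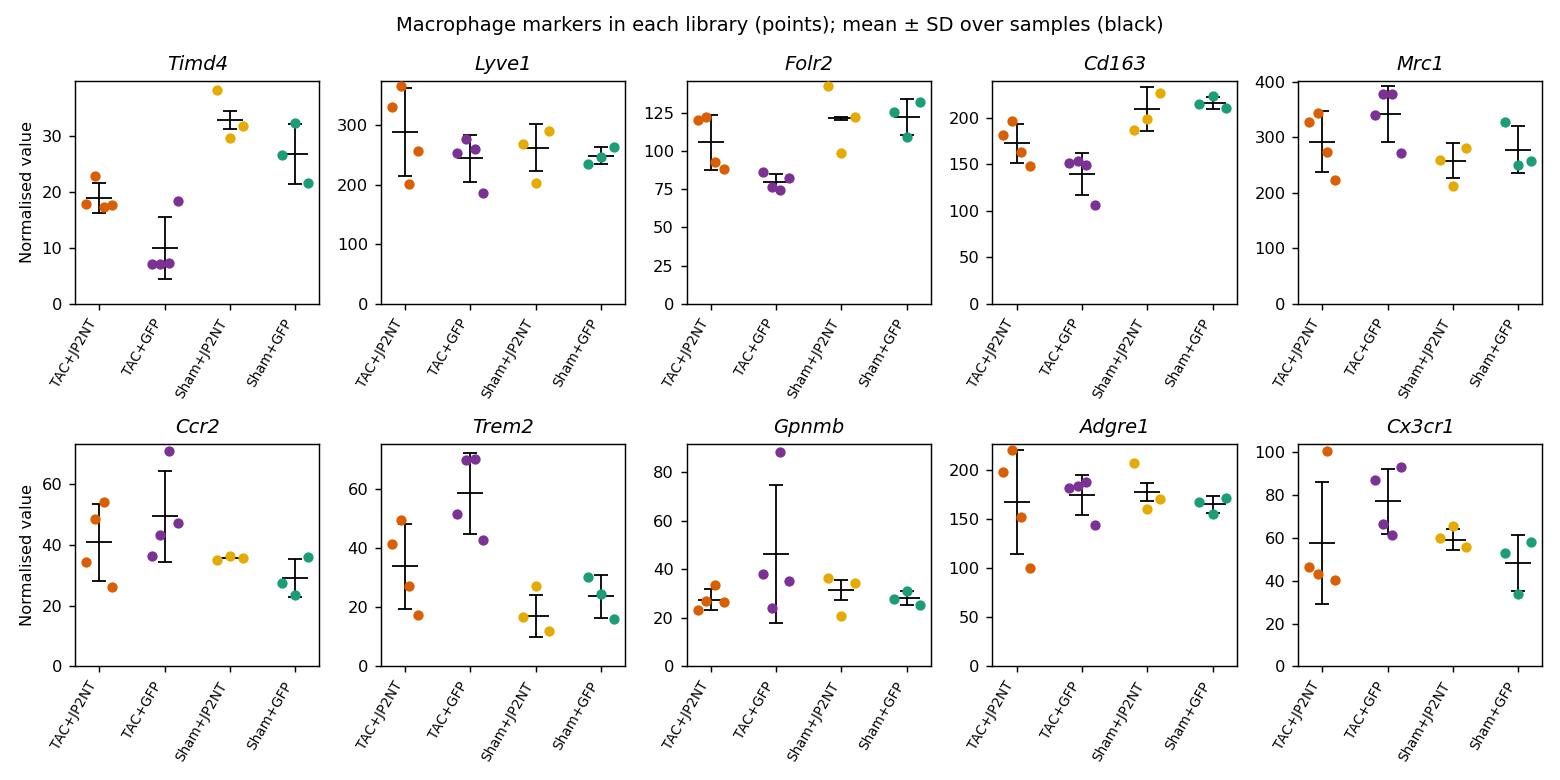
Normalised value (linear axes from 0) of each of the 10 markers in each of 14 libraries (points), with the mean and SD over samples (black; n = 4, 4, 2 and 3 from left to right). Timd4 is near 7 in 3 TAC+GFP libraries and between 21.6 and 38.2 in all sham libraries, whereas Trem2 is highest in TAC+GFP hearts.

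Timd4 encodes a phosphatidylserine receptor used to engulf dying cells and is the most restrictive of the resident markers. Its normalised values were 7.17, 7.13, 7.24 and 18.4 in TAC+GFP hearts (replicates 1 to 4), against 26.7, 32.4 and 21.6 in Sham+GFP hearts. Every TAC+GFP library lay below every Sham+GFP library, and replicate 4 stood well above the rest of its group. Timd4 fell by 1.44 on the log2 scale, a log2 fold change of -1.44 (95% interval -2.10 to -0.79), or 2.72-fold lower, with a limma adjusted p of 0.00141. The gene is weakly expressed: about 7 to 18 reads lay behind each TAC+GFP value and 26 to 27 behind each Sham+GFP value. Counting error alone gives the lowest TAC+GFP library a 95% Poisson interval of 3.11 to 14.2 and the lowest Sham+GFP library one of 14.3 to 32.1. For TAC+GFP replicate 3 the interval was 2.91 to 14.9, which overlaps that of the lowest Sham+GFP library. For TAC+GFP replicate 4 the interval was 10.8 to 28.7, which overlaps that of every Sham+GFP library. Without TAC+GFP replicate 4 the log2 fold change was -1.75 (limma adjusted p = 7e-05).

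Cd163 encodes the scavenger receptor for haemoglobin bound to haptoglobin. It stood at 151, 153, 149 and 106 in TAC+GFP hearts, against 214, 223 and 210 in Sham+GFP hearts. The groups did not overlap, and replicate 4 was the lowest library. Cd163 had a log2 fold change of -0.64 (95% interval -0.93 to -0.35; limma adjusted p = 0.00135). Without that replicate it was -0.51 (limma adjusted p = 0.00211), so the fall did not rest on it.

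Folr2 encodes folate receptor beta. Its values were 86.0, 76.6, 74.6 and 82.3 in TAC+GFP hearts, against 126, 109 and 132 in Sham+GFP hearts, again without overlap. Its log2 fold change was -0.60 (95% interval -0.89 to -0.32; limma adjusted p = 0.00199). Folr2 varied little within TAC+GFP hearts, with an SD of 5.19 around a mean of 79.9.

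The remaining resident markers behaved otherwise. Lyve1, a hyaluronan receptor shared with lymphatic endothelium, gave 254, 277, 260 and 187 in TAC+GFP hearts, against 236, 247 and 264 in Sham+GFP hearts, and the groups overlapped (log2 fold change -0.04, 95% interval -0.42 to 0.34, limma adjusted p = 0.871). Among 6 lymphatic markers, 3 rose and 1 fell, beside 23.3% of all genes called higher and 24.8% called lower, with a median log2 fold change of 0.39. Their summed level was 1628 to 1927 in TAC+GFP and 1422 to 1602 in Sham+GFP libraries. Pdpn, a surface glycoprotein of lymphatic and other cells, averaged 111 ± 14.2 in TAC+GFP and 55.3 ± 7.23 in Sham+GFP hearts, and Prox1, a transcription factor of lymphatic endothelium and cardiomyocytes, averaged 501 ± 84.8 and 679 ± 35.2 in the same order (SD, n = 4 and 3). The part of lymphatic RNA in the Lyve1 level was not tested. Mrc1, the mannose receptor CD206, gave 341, 379, 378 and 272 in TAC+GFP hearts, against 327, 251 and 257 in Sham+GFP hearts (log2 fold change 0.30, 95% interval -0.04 to 0.63, limma adjusted p = 0.131).

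Trem2, a lipid-sensing receptor that signals through the adaptor TYROBP, showed the largest rise of the 10 markers. Its values were 51.4, 69.5, 70.1 and 42.7 in TAC+GFP hearts, against 30.3, 24.4 and 16.1 in Sham+GFP hearts. The groups did not overlap, although replicate 4 was again the TAC+GFP library nearest to sham. Trem2 had a log2 fold change of 1.28 (95% interval 0.56 to 2.01), or 2.44-fold, with a limma adjusted p of 0.00616. It was 1.42 without replicate 4 (limma adjusted p = 0.00542).

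Ccr2, the receptor through which monocytes follow CCL2 and related chemokines, gave 36.2, 43.2, 71.0 and 47.4 in TAC+GFP hearts, against 27.6, 23.6 and 36.0 in Sham+GFP hearts. The lowest TAC+GFP library and the highest Sham+GFP library were nearly level, and no library crossed. Ccr2 had a log2 fold change of 0.72 (95% interval 0.15 to 1.29; limma adjusted p = 0.0363). The call was lost when any of 4 libraries was left out, with limma adjusted p-values of 0.0919 and 0.14 without Sham+GFP replicates 1 and 2 and of 0.106 and 0.0557 without TAC+GFP replicates 3 and 4, and also when genes were not filtered on low values (0.0583).

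Gpnmb, a lysosomal glycoprotein of lipid-laden macrophages that is also found in melanocytes, was uneven. It gave 38.1, 24.2, 88.3 and 35.3 in TAC+GFP hearts, against 28.0, 31.2 and 25.3 in Sham+GFP hearts, with replicate 3 far above the rest and replicate 2 below every Sham+GFP library (log2 fold change 0.54, 95% interval -0.14 to 1.22, limma adjusted p = 0.174). The summed level of 5 melanocyte markers was also highest in replicate 3, at 164, while the rest of TAC+GFP lay at 118 to 136 and Sham+GFP libraries at 64.0 to 94.3, and its part in the Gpnmb value was not tested.

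Adgre1 encodes F4/80, the general macrophage antigen of the mouse. It gave 182, 184, 188 and 144 in TAC+GFP hearts, against 168, 156 and 172 in Sham+GFP hearts, an overlap with a log2 fold change of 0.07 (95% interval -0.36 to 0.50; limma adjusted p = 0.792). Cx3cr1, the receptor of fractalkine, gave 86.8, 66.4, 61.4 and 92.9 in TAC+GFP hearts, against 53.0, 33.7 and 58.0 in Sham+GFP hearts. The Cx3cr1 values did not overlap, but its log2 fold change of 0.68 (95% interval 0.07 to 1.28) had a limma adjusted p of 0.0606. The annotated span of Cx3cr1 overlaps 9 other genes, of which Wdr48, Gorasp1, Ttc21a, Csrnp1 and Xirp1 are listed in the table, and how reads in shared stretches were assigned is not given in the sources used here.

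**Figure D2:**
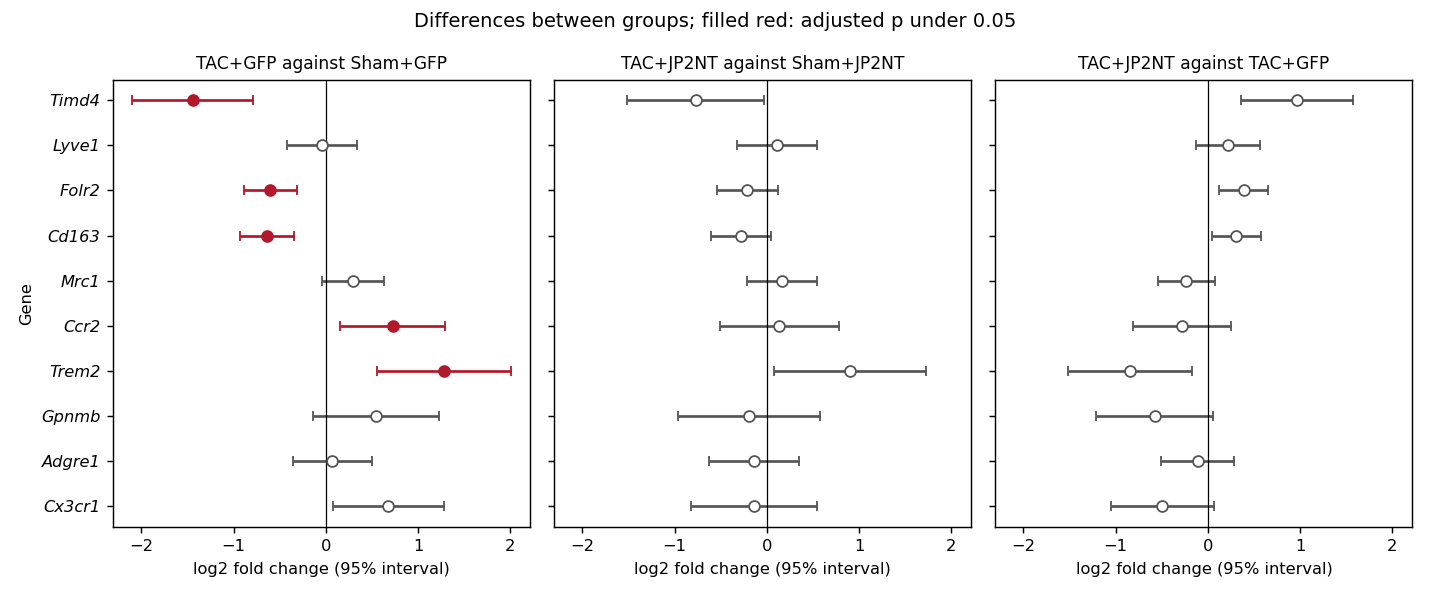
Log2 fold change (points) with its 95% interval (bars) for each marker in TAC+GFP against Sham+GFP, TAC+JP2NT against Sham+JP2NT and TAC+JP2NT against TAC+GFP; filled red points had a limma adjusted p under 0.05. Timd4, Folr2 and Cd163 lie left of 0 and Ccr2 and Trem2 right of 0 in the first panel, and no marker is filled in the other panels.

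Relative to Adgre1 within each library, Timd4 was 3.94, 3.87, 3.84 and 12.7% of Adgre1 in TAC+GFP hearts, against 15.9, 20.8 and 12.5% in Sham+GFP hearts. Whether Adgre1 follows the amount of macrophage RNA was not tested, and it was itself low in TAC+GFP replicate 4, at 144. Replicate 4 of TAC+GFP therefore reached the lowest Sham+GFP library on this scale, while the other TAC+GFP libraries lay far below. The Trem2 to Timd4 ratio was 7.16, 9.75, 9.69 and 2.33 in TAC+GFP hearts, against 1.13, 0.755 and 0.746 in Sham+GFP hearts. Ccr2, Trem2 and Gpnmb together made up 13.05, 13.3, 20.9 and 15.9% of the summed values of the 8 resident and recruited markers in TAC+GFP hearts, against 8.46, 8.42 and 8.05% in Sham+GFP hearts. Both measures kept the groups apart in all 7 libraries, but they combine genes described above and add no separate evidence.

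**Figure D3:**
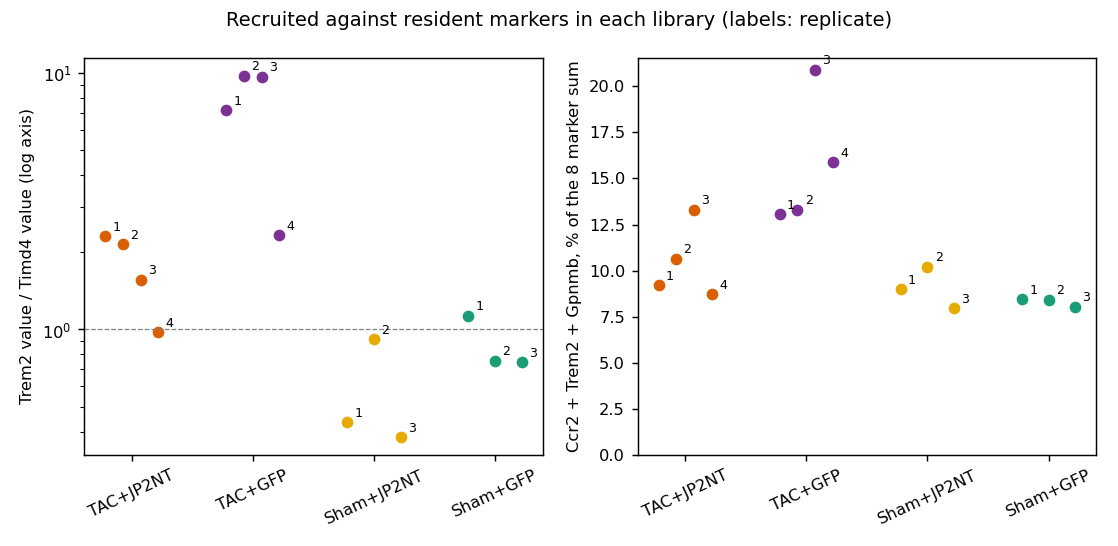
Trem2 value over Timd4 value (left, log axis) and the percentage of the summed values of the 8 resident and recruited markers due to Ccr2, Trem2 and Gpnmb (right), in each library, numbered by replicate. On the left, 3 TAC+GFP libraries lie between 7.16 and 9.75, replicate 4 lies at 2.33, and the TAC+JP2NT libraries lie between 0.978 and 2.31.

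Scaled to the length of annotated exons, so that genes can be set beside each other, Lyve1 was the most abundant of the 10 markers in every group, with 98.9 ± 25.1 per kilobase in TAC+JP2NT hearts, 83.7 ± 13.5 in TAC+GFP hearts, 89.9 ± 13.3 in Sham+JP2NT hearts and 85.2 ± 4.81 in Sham+GFP hearts (SD, n = 4, 4, 2 and 3). Timd4 was the least abundant in TAC+GFP hearts, at 4.59 ± 2.57 per kilobase, against 12.4 ± 2.48 in Sham+GFP hearts, where it stood sixth. Trem2 stood at 11.8 ± 2.75 per kilobase in TAC+GFP and 4.78 ± 1.44 in Sham+GFP hearts. In TAC+GFP hearts its level per kilobase thus lay above that of Timd4, and in Sham+GFP hearts below it. The length joins all annotated exons of a gene (2.173 kilobases for Timd4 and 4.946 for Trem2), whether or not each was expressed. The order of genes therefore depends on the annotation.

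The sequences before the starts of the 4 markers called under every alternative analysis are shown, so that the 3 that fell can be set beside Trem2, which rose. They are the 250 bases upstream of the RefSeq start (GRCm38.p6, read 5′ to 3′ on the gene's strand), with capitals marking TGCTGA or its reverse complement TCAGCA, the core letters bound by MAF factors, and GAGGAA or its reverse complement TTCCTC, the core letters bound by the ETS factor PU.1.
Timd4, chr11:46810549-46810798, plus strand: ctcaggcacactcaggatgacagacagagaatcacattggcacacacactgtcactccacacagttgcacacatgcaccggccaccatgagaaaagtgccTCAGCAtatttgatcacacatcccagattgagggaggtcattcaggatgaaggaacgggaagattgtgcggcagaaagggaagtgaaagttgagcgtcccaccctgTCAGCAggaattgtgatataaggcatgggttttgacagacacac
Cd163, chr6:124304401-124304650, plus strand: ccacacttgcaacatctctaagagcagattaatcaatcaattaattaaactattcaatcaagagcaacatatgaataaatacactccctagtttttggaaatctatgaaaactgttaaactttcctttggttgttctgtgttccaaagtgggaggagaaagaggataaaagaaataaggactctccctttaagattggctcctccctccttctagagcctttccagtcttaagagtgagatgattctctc
Folr2, chr7:101857191-101857440, minus strand: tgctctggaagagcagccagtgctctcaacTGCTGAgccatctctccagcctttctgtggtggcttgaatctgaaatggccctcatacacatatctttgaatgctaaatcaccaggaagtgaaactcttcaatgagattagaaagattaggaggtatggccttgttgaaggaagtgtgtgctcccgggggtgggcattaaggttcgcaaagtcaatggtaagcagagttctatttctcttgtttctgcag
Trem2, chr17:48346151-48346400, plus strand: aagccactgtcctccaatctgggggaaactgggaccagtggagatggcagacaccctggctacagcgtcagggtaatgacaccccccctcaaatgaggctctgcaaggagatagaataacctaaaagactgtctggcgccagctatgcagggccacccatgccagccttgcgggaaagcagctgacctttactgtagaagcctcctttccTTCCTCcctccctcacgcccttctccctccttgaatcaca
The promoter table matched 8 of the 10 markers with 9 starts, since Folr2 has 2, of which the one at the end of its annotated span is shown. Lyve1 and Adgre1 had no entry. The MAF letters were in 3 of the 9 windows, with 2 matches at Timd4 and 1 at each Folr2 start, beside 16.1% of all 32851 windows of that length. The PU.1 letters were in 2 of the 9, with 3 matches at Mrc1 and 1 at Trem2, beside 23.3% of all windows. No matches overlapped, and both strands were searched. A match is a description of letters and not a site of binding.

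In mm10 with the GENCODE M21 annotation, Timd4 spans chr11:46810800-46844332 (plus strand), Cd163 chr6:124304656-124330527 (plus), Trem2 chr17:48346401-48354147 (plus) and Ccr2 chr9:124101950-124113557 (plus). Folr2 spans chr7:101839988-101857194 on the minus strand, where the annotation also places the antisense gene Gm10602 and the pseudogene Gm45319 on the plus strand. Neither is in the table, and libraries were stranded, but the strand setting used in counting is not given in the sources used here.

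Other genes of the same cells moved in more than one direction. Of 18 macrophage lineage genes, 4 rose and 2 fell in TAC+GFP against Sham+GFP hearts, which is no more than the 23.3% of all genes called higher and the 24.8% called lower. Their median log2 fold change was 0.28 beside -0.01 over all genes. Cd14, a co-receptor for bacterial lipopolysaccharide, averaged 141 ± 29.4 in TAC+GFP and 62.9 ± 2.41 in Sham+GFP hearts (log2 fold change 1.12, limma adjusted p = 0.000202). Cd86, a co-stimulatory ligand for T cells, averaged 61.6 ± 12.7 and 25.8 ± 1.72 in those groups (1.20, limma adjusted p = 0.000655). Mpeg1, a pore-forming protein of macrophages, averaged 268 ± 54.0 and 149 ± 18.97 (0.83, limma adjusted p = 0.0114, and 0.0516 without Sham+GFP replicate 2). Itgam, the integrin CD11b, fell, with 77.8 ± 21.4 in TAC+GFP and 122 ± 15.1 in Sham+GFP hearts (-0.69, limma adjusted p = 0.0164, and 0.0723 without Sham+GFP replicate 1). The number called ranged from 4 to 11 of 18 over the alternative analyses.

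Of 11 further resident macrophage genes tested, 2 rose and 2 fell, again below the 23.3% and 24.8% of all genes, with a median log2 fold change of -0.26. F13a1, coagulation factor XIII subunit A, fell, with 412 ± 42.5 in TAC+GFP and 576 ± 42.2 in Sham+GFP hearts (log2 fold change -0.49, limma adjusted p = 0.0101). Fcna, a ficolin, averaged 24.5 ± 8.97 and 44.9 ± 2.71 in those groups (-0.93, limma adjusted p = 0.0175, and 0.0573 without Sham+GFP replicate 1). Selenop, a selenium carrier, and Gas6, a bridge between dying cells and their receptors, were the genes that rose, at log2 fold changes of 0.34 and 0.24, and neither passed without Sham+GFP replicate 1 (limma adjusted p = 0.0558 and 0.0708). The number called was between 1 and 7 over the alternatives.

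In the lipid-associated list 6 of 12 genes rose and 2 fell, beside 23.3% of all genes called higher and 24.8% called lower, with a median log2 fold change of 0.23. Lgals3, galectin-3, averaged 387 ± 98.7 in TAC+GFP and 67.3 ± 7.32 in Sham+GFP hearts (log2 fold change 2.48, limma adjusted p = 2.98e-07). Spp1, the secreted matrix protein osteopontin, ranged from 37.6 to 187 in TAC+GFP and from 5.83 to 11.9 in Sham+GFP libraries (3.34, limma adjusted p = 1.46e-05). Spp1 could pass the filter on low values through the TAC groups, where it was high, so its direction adds no support to the count. Ctsk, a matrix-degrading cathepsin, and Cd63, a lysosomal membrane protein, rose by 1.72 and 0.84 on the log2 scale (limma adjusted p = 5.19e-06 and 4.24e-07). Several of these genes are also expressed by fibroblasts and muscle. Of 6 fibroblast markers, 4 rose in the same comparison, with summed levels of 11589 to 16138 in TAC+GFP and 9031 to 9700 in Sham+GFP libraries, and their part in the list was not tested.

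On the receptor side, Tyrobp, the adaptor through which TREM2 signals, averaged 204 ± 49.8 in TAC+GFP and 110.2 ± 9.35 in Sham+GFP hearts (log2 fold change 0.86, limma adjusted p = 0.00547). Plcg2, a phospholipase downstream of it, averaged 271 ± 22.5 and 166 ± 11.1 (0.71, limma adjusted p = 0.000346). Of 7 genes of this signalling list that were tested, 4 rose and 1 fell, beside the same shares of all genes. Irf8, a myeloid transcription factor, rose by 0.53 (limma adjusted p = 0.0189, and 0.0986 without Sham+GFP replicate 2). The median of the list was 0.36.

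On the ligand side, 2 of 7 genes tested rose and 1 fell, beside 23.3% and 24.8% of all genes, with a median log2 fold change of 0.04. Ccl8, a monocyte chemokine, ranged from 45.6 to 139 in TAC+GFP and from 5.07 to 11.7 in Sham+GFP libraries (2.87, limma adjusted p = 0.000103). Ccl8 could pass the filter on low values through the TAC groups, where it was high, so its direction adds no support to the count. Cx3cl1, the ligand of CX3CR1, averaged 328 ± 59.2 in TAC+GFP and 176 ± 30.4 in Sham+GFP hearts (0.89, limma adjusted p = 0.00451). Csf1, the growth factor that macrophages live on, averaged 581 ± 102 and 1010 ± 103 (-0.81, limma adjusted p = 0.000534). Csf1r, its receptor and a gene chosen after its values were seen, averaged 490.2 ± 40.8 and 644 ± 26.2 (-0.40, limma adjusted p = 0.043). Ccl2, the main ligand of CCR2 and likewise chosen after its values were seen, averaged 30.3 ± 11.04 and 28.7 ± 7.09 (0.04, limma adjusted p = 0.949), and Csf2 was at 0 in every library.

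Monocyte transcripts were scarce. Of 10 monocyte genes, 4 passed the filter on low values, and since they could pass through the group where they were high, their direction is not counted. The summed level of all 10 was 110 to 324 in TAC+GFP and 54.2 to 61.8 in Sham+GFP libraries, much of it from Hp, which encodes haptoglobin and is not confined to monocytes. Hp ranged from 32.6 to 220.5 in TAC+GFP and from 16.2 to 23.5 in Sham+GFP libraries. Other blood cells also left transcripts, unevenly between libraries: summed levels in TAC+GFP libraries were 37.0 to 155 over 6 neutrophil markers, 21.2 to 41.9 over 6 T cell markers and 6.12 to 11.6 over 4 NK cell markers, beside 20.9 to 41.7, 18.1 to 34.6 and 0.994 to 3.62 in Sham+GFP libraries. The 4 B cell markers summed to 34.1, 35.8, 32.5 and 107 in TAC+GFP replicates 1 to 4 and to 26.1 to 36.8 in Sham+GFP libraries. Erythroid markers were higher in TAC+GFP hearts, with 15619 to 21725 beside 6734 to 8491 over 4 genes. The part of blood left in the tissue in the rise of Ccr2 was not tested.

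**Figure D4:**
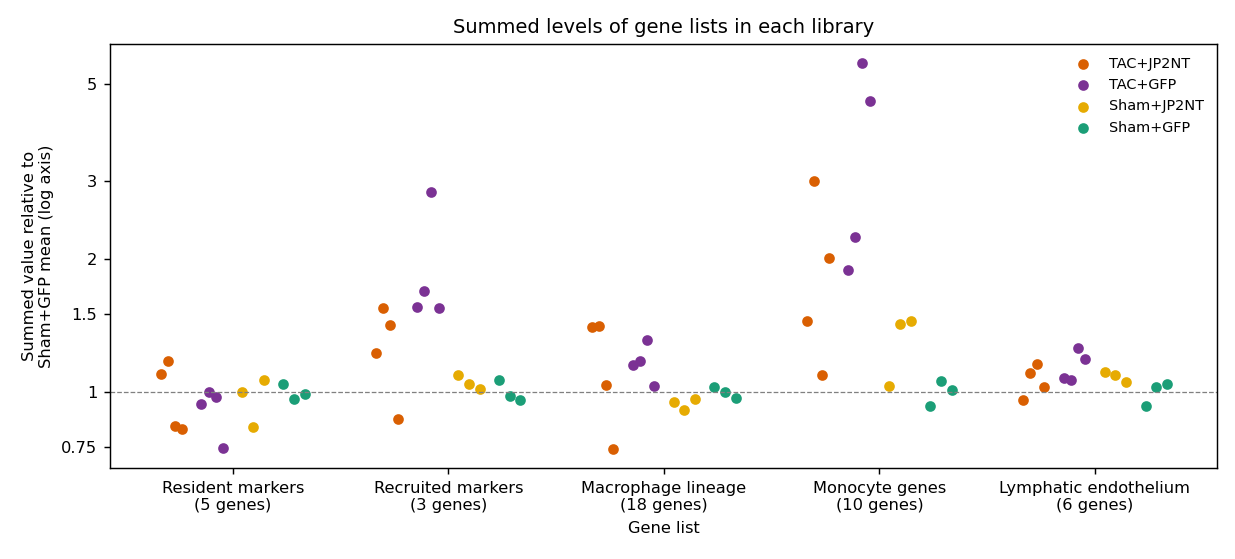
Summed normalised value of each gene list in each of 14 libraries, divided by the mean of the 3 Sham+GFP libraries (log axis; the dashed line marks a ratio of 1), for the 5 resident markers, the 3 recruited markers, 18 macrophage lineage genes, 10 monocyte genes and 6 lymphatic genes. TAC+GFP lies at 1.55 to 2.84 for the recruited markers and at 1.03 to 1.31 for the lineage genes, and TAC+JP2NT spans 0.743 to 1.41 for the lineage genes.

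The second question was the effect of overload in mice given JP2NT. None of the 10 markers passed the test in TAC+JP2NT against Sham+JP2NT hearts, beside 31.9% of all genes called (16.1% higher and 15.8% lower). By limma, 2 of them had an unadjusted p under 0.05, Trem2 and Timd4. The sham arm holds 2 samples, and the intervals are wide.

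Timd4 gave 17.9, 22.9, 17.4 and 17.7 in TAC+JP2NT hearts, against 38.2, 29.8 and 31.8 in Sham+JP2NT hearts. These groups did not overlap, the only such case among the 10 markers, beside 49.6% of all genes (24.5% wholly higher and 25.2% wholly lower). Timd4 had a log2 fold change of -0.77 (95% interval -1.51 to -0.03; limma adjusted p = 0.106). Trem2 gave 41.3, 49.4, 27.3 and 17.3 in TAC+JP2NT hearts, against 16.6, 27.3 and 12.1 in Sham+JP2NT hearts, with overlap and a log2 fold change of 0.90 (95% interval 0.08 to 1.73; limma adjusted p = 0.0877). TAC+JP2NT replicate 4 was the library at sham level, and without it the log2 fold change of Trem2 was 1.18 (limma adjusted p = 0.0148). Without Sham+JP2NT replicate 2 it was 1.09 (0.036), and Timd4 passed without TAC+GFP replicate 4, which enters through the shared spread (-0.77, limma adjusted p = 0.0334).

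Cd163 gave 181, 196, 163 and 148 in TAC+JP2NT hearts, against 187, 198 and 226 in Sham+JP2NT hearts (log2 fold change -0.28, 95% interval -0.61 to 0.04, limma adjusted p = 0.174). Folr2 gave 120, 122, 92.4 and 88.1 in TAC+JP2NT hearts, against 142, 98.8 and 122 in Sham+JP2NT hearts (-0.21, 95% interval -0.54 to 0.12, limma adjusted p = 0.316). In both genes replicates 3 and 4 of TAC+JP2NT lay below every Sham+JP2NT library. Replicate 2 lay within the Sham+JP2NT range in both, and replicate 1 for Folr2 but not for Cd163. Ccr2 gave 34.4, 48.7, 54.1 and 26.3 in TAC+JP2NT hearts, against 35.1, 36.3 and 35.7 in Sham+JP2NT hearts, so the TAC+JP2NT libraries lay on both sides of sham (0.14, 95% interval -0.51 to 0.78, limma adjusted p = 0.77). The other 5 markers had log2 fold changes between -0.19 and 0.16.

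The lists of related genes gave few calls under JP2NT outside the lipid-associated and signalling genes, beside 16.1% of all genes called higher and 15.8% called lower. Of the 12 lipid-associated genes, 5 rose with TAC in JP2NT hearts and 2 fell, and those that rose include Spp1 (31.4 ± 3.66 in TAC+JP2NT and 5.95 ± 0.952 in Sham+JP2NT hearts, log2 fold change 2.22, limma adjusted p = 0.00253) and Lgals3 (127 ± 24.8 and 64.9 ± 1.32, 0.94, limma adjusted p = 0.00428). Of 7 signalling genes 3 rose and none fell, namely Tyrobp, Plcg2 and Syk, a kinase of the same pathway, at 0.74, 0.57 and 0.65 (limma adjusted p = 0.0367, 0.00742 and 0.000137). Cd86 and Aif1, an actin-binding protein of macrophages, were the 2 lineage genes of 18 that rose, below the share of all genes, and none fell. None of the 11 further resident genes was called (median log2 fold change -0.01). Of the ligands, 1 of 7 rose, Ccl8, by 1.59 (limma adjusted p = 0.0249). Spp1 and Ccl8 could pass the filter on low values through the TAC groups, so their direction adds no support to these counts.

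The third question was whether overloaded hearts given JP2NT differ from overloaded hearts given GFP. None of the 10 markers was called in TAC+JP2NT against TAC+GFP, beside 6.15% of all genes (2.75% higher and 3.4% lower). By limma, 4 had an unadjusted p under 0.05: Timd4, Folr2 and Cd163 were higher in the TAC+JP2NT libraries on average and Trem2 lower. Timd4 could pass the filter on low values through groups other than TAC+GFP, so its direction adds no support to this count. This comparison and the one of TAC+GFP against Sham+GFP use the same TAC+GFP libraries, so opposite signs in them are not independent.

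Timd4 gave 17.9, 22.9, 17.4 and 17.7 in TAC+JP2NT hearts, against 7.17, 7.13, 7.24 and 18.4 in TAC+GFP hearts. The groups overlapped only through TAC+GFP replicate 4, which lay above 3 of the TAC+JP2NT libraries. Timd4 had a log2 fold change of 0.97 (95% interval 0.36 to 1.58), 1.96-fold, with a limma adjusted p of 0.058. Without that replicate it was 1.28 (limma adjusted p = 0.00558), so leaving out that library changed the call. About 17 to 32 reads stood behind each TAC+JP2NT value and 7 to 18 behind each TAC+GFP value. As a share of Adgre1, Timd4 was 9.04, 10.4, 11.4 and 17.6% in TAC+JP2NT hearts, against 3.94, 3.87, 3.84 and 12.7% in TAC+GFP hearts. Adgre1 was lowest in replicate 4 of each group, at 100.4 in TAC+JP2NT and 144 in TAC+GFP, which raises the share there.

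Folr2 was the only marker of the 10 whose TAC groups did not overlap, beside 10.7% of all genes (5.25% wholly higher and 5.41% wholly lower). It gave 120, 122, 92.4 and 88.1 in TAC+JP2NT hearts, against 86.0, 76.6, 74.6 and 82.3 in TAC+GFP hearts. This was a log2 fold change of 0.39 (95% interval 0.12 to 0.65; limma adjusted p = 0.0802, and 0.043 at 0.47 without TAC+JP2NT replicate 4). Cd163 gave 181, 196, 163 and 148 in TAC+JP2NT hearts, against 151, 153, 149 and 106 in TAC+GFP hearts, a log2 fold change of 0.31 (95% interval 0.04 to 0.57; limma adjusted p = 0.158) that was 0.18 (0.319) without TAC+GFP replicate 4.

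Trem2 gave 41.3, 49.4, 27.3 and 17.3 in TAC+JP2NT hearts, against 51.4, 69.5, 70.1 and 42.7 in TAC+GFP hearts. Only TAC+JP2NT replicate 2 exceeded the lowest TAC+GFP library, and replicates 3 and 4 lay near sham values. Trem2 had a log2 fold change of -0.85 (95% interval -1.52 to -0.17; limma adjusted p = 0.122). Ccr2 and Gpnmb had log2 fold changes of -0.28 (95% interval -0.81 to 0.25) and -0.58 (95% interval -1.21 to 0.05), with limma adjusted p-values of 0.555 and 0.265. Gpnmb gave 23.2, 27.0, 33.4 and 26.6 in TAC+JP2NT hearts, where no library was as high as the 88.3 of TAC+GFP replicate 3.

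Cx3cr1 gave 46.3, 43.2, 100.3 and 40.5 in TAC+JP2NT hearts, against 86.8, 66.4, 61.4 and 92.9 in TAC+GFP hearts. TAC+JP2NT replicate 3 was the highest library of all 14, while the other TAC+JP2NT libraries lay below every TAC+GFP library. The log2 fold change was -0.50 (95% interval -1.06 to 0.06; limma adjusted p = 0.284), and -0.79 (0.0309) without replicate 3. Lyve1 gave 330, 366, 202 and 258 in TAC+JP2NT hearts, Mrc1 gave 328, 343, 274 and 223, and Adgre1 gave 198, 221, 153 and 100.4. In each of these genes replicates 1 and 2 of TAC+JP2NT were higher than replicates 3 and 4, and the limma adjusted p-values against TAC+GFP were 0.474, 0.364 and 0.781.

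This split within TAC+JP2NT was not particular to the markers. The summed level of the 18 lineage genes, relative to the Sham+GFP mean, was 1.40, 1.41, 1.04 and 0.743 in TAC+JP2NT replicates 1 to 4, against 1.15, 1.17, 1.31 and 1.03 in TAC+GFP replicates 1 to 4. Some lists of other blood cells showed the split too, and others did not. The summed neutrophil markers were 139, 115, 27.1 and 24.5 in TAC+JP2NT replicates 1 to 4, against 64.4, 66.0, 155 and 37.0 in TAC+GFP replicates 1 to 4. The summed erythroid markers were 18356, 17739, 7714 and 11162 in the TAC+JP2NT libraries, against 15619, 15880, 21725 and 15938 in the TAC+GFP libraries. The summed NK cell markers, a few reads in all, were 11.6, 9.99, 4.10 and 2.95 in the TAC+JP2NT libraries. Without the split were the monocyte genes, at 84.4, 176, 63.7 and 117 in TAC+JP2NT replicates 1 to 4. The same held for the T cell markers, at 22.3, 31.2, 28.3 and 19.7, and the mast cell markers, at 45.5, 83.1, 56.0 and 74.8. The part of these shifts in the marker differences was not tested. The Trem2 to Timd4 ratio was 2.31, 2.16, 1.57 and 0.978 in TAC+JP2NT hearts, against 7.16, 9.75, 9.69 and 2.33 in TAC+GFP hearts. It does not remove the split, since within groups Trem2 and Timd4 hardly varied together (Pearson correlation -0.04). On this ratio the groups came close only between TAC+GFP replicate 4 and TAC+JP2NT replicate 1, without overlap. Recruited markers made up 9.20, 10.6, 13.3 and 8.73% of the 8-marker sum in TAC+JP2NT hearts, against 13.05, 13.3, 20.9 and 15.9% in TAC+GFP hearts, which overlapped through TAC+JP2NT replicate 3. Both measures combine genes described above and add no separate evidence.

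Among the other macrophage lists, the lipid-associated genes held the calls. With JP2NT, 5 of 12 fell in overloaded hearts and none rose, beside 3.4% of all genes called lower. Their median was -0.21 beside 0.00 over all genes. Those called were Lgals3, Cd63, Ctsk, Ctsd and Spp1, of which Ctsd encodes a lysosomal cathepsin. Several genes of this list are also expressed by fibroblasts and muscle, and the part of those cells in the calls was not tested. Lists of other cell types held calls too, among them 1 of 6 pericyte and smooth muscle markers, called higher beside 2.75% of all genes. Lgals3 ranged from 99.1 to 151 in TAC+JP2NT and from 279 to 518 in TAC+GFP libraries without overlap (log2 fold change -1.59, limma adjusted p = 0.000352). Cd63 fell by 0.33 (limma adjusted p = 0.00746), Ctsk by 0.77 (0.0178) and Ctsd by 0.32 (0.0196). The number called was 2 to 6 over the alternatives, and Ctsk and Ctsd were the least stable. Ctsk missed the threshold in 4 alternatives (limma adjusted p = 0.0547 without TAC+GFP replicate 2, 0.05 without TAC+JP2NT replicate 1, 0.0565 with the compared groups only and 0.0705 with the closest TAC replicates averaged). Ctsd missed it in 6, namely in the same 4 (limma adjusted p = 0.0615, 0.0504, 0.104 and 0.111) and without TAC+GFP replicate 1 (0.0509) or TAC+JP2NT replicate 2 (0.0511). Of the 18 lineage genes, the 11 other resident genes, the 7 signalling genes and the 7 ligands, none was called. Ccl8 ranged from 14.7 to 31.7 in TAC+JP2NT and from 45.6 to 139 in TAC+GFP libraries, with a limma adjusted p of 0.0588.

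In sham hearts, JP2NT was set against GFP without overload. None of the 10 markers was called by limma in Sham+JP2NT against Sham+GFP, none had an unadjusted p under 0.05 and all overlapped between groups, beside 0% of all genes called, 581 genes with an unadjusted p under 0.05 and 30.2% of all genes without overlap (12.5% higher and 17.7% lower). Timd4 gave 38.2, 29.8 and 31.8 in Sham+JP2NT hearts, against 26.7, 32.4 and 21.6 in Sham+GFP hearts (log2 fold change 0.30, 95% interval -0.49 to 1.08). Trem2 gave 16.6, 27.3 and 12.1 in Sham+JP2NT hearts, against 30.3, 24.4 and 16.1 in Sham+GFP hearts (-0.46, 95% interval -1.33 to 0.41). With 2 samples against 3, these intervals leave room for changes of the size seen between TAC groups.

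The difference of differences asks whether the response to overload depended on the vector. None of the 10 markers passed, and none had an unadjusted limma p under 0.05, beside 0.0757% of all genes called (10 genes; 0.0378% with an estimate above 0 and 0.0378% below). The estimates, JP2NT minus GFP, were 0.67 for Timd4 (95% interval -0.32 to 1.66), 0.39 for Folr2 (-0.04 to 0.83), 0.35 for Cd163 (-0.08 to 0.79), -0.59 for Ccr2 (-1.45 to 0.27), -0.38 for Trem2 (-1.48 to 0.72) and -0.82 for Cx3cr1 (-1.73 to 0.09), with limma adjusted p-values from 0.485 to 0.833. So a call under GFP and none under JP2NT does not show that the response to overload differed between vectors.

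Set side by side, Timd4 averaged 18.99 ± 2.63 in TAC+JP2NT hearts, 9.97 ± 5.59 in TAC+GFP hearts, 32.9 ± 1.58 in Sham+JP2NT hearts and 26.9 ± 5.39 in Sham+GFP hearts (SD, n = 4, 4, 2 and 3, as for the genes that follow). TAC+GFP was thus lowest, then TAC+JP2NT, then Sham+GFP, then Sham+JP2NT. By the adjusted test no difference was called between the TAC groups or between the sham groups, and TAC+JP2NT was not tested against Sham+GFP. Cd163 averaged 172 ± 21.1 in TAC+JP2NT hearts, 139.8 ± 22.5 in TAC+GFP hearts, 209 ± 23.6 in Sham+JP2NT hearts and 216 ± 6.55 in Sham+GFP hearts, and Folr2 shared its order, with TAC+GFP lowest and Sham+GFP highest. Trem2 averaged 33.8 ± 14.3 in TAC+JP2NT hearts, 58.4 ± 13.6 in TAC+GFP hearts, 17.0 ± 6.99 in Sham+JP2NT hearts and 23.6 ± 7.12 in Sham+GFP hearts, so that TAC+GFP was highest and Sham+JP2NT lowest. Ccr2 averaged 40.9 ± 12.8 in TAC+JP2NT hearts, 49.5 ± 15.1 in TAC+GFP hearts, 35.7 ± 0.0153 in Sham+JP2NT hearts and 29.1 ± 6.34 in Sham+GFP hearts. For these genes too, neither the TAC groups nor the sham groups were separated by the adjusted test.

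Within groups the markers varied together to differing degrees. Over the 13 samples, Pearson correlations of deviations from group means of log2 values were highest between Cd163 and Mrc1 (0.83), Mrc1 and Adgre1 (0.81), Trem2 and Adgre1 (0.80) and Lyve1 and Cd163 (0.80), and lowest between Lyve1 and Cx3cr1 (-0.66) and Timd4 and Cd163 (-0.57). The samples share libraries and depth, and these values are descriptions. By the same measure the gene most like each marker was Slfn5 for Adgre1 (0.97), followed by Rp2 (0.97) and Ccr1 (0.96), and Wdr5b for Trem2 (0.94), followed by the macrophage membrane gene Ms4a7 (0.93) and Prkch (0.92). Ccr2 was most like Rabep1 (0.96), Clec4a2 (0.93) and Ppp4r3b (0.93). Timd4, at few reads, was most like Sh3bp5l (0.97), Zfp65 (0.92) and Snx11 (0.92).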

How the data were processed

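The deposited table gives 1 signal per gene and library. Per the submitters' processing notes, FastQC 1.0.0, STAR 2.6.1a, Salmon and mm10 were used; the deposited signal is gene counts the authors divided by scale factors, separately within the 7 GFP and the 7 JP2NT libraries, as median-of-ratios factors equal within each set show. Only 1.11 to 2.87% of values above 0 are whole multiples (within 0.001) of the commonest low value, taken as 1 read, so whole reads were not recovered and depth is estimated. Values were rescaled jointly by trimmed means of M-values (30% of ratios, 5% of levels). Genes with at least 10 in at least 3 of 13 samples were tested, two-sided, with limma-trend 3.58.1 (R 4.3.3) on log2(value + 1). The fit had 1 mean per group and 1 spread (9 residual and 5.71 prior degrees of freedom), as planned for scaled values, with a count test planned only for whole counts. It was tried on simulated data in which all groups shared the spread of a gene, which does not cover unequal spreads. The median within-group SD (log2) was 0.176 for TAC+JP2NT, 0.158 for TAC+GFP, 0.0835 for Sham+JP2NT and 0.107 for Sham+GFP, so a shared spread is too small for most genes in TAC and too large in sham hearts. Sham+JP2NT replicates 1 and 2 had 1.61 times counting variance over abundant genes (other pairs 5.72 to 111; limit 2) and were averaged. Intervals from reads cover counting error only. Named genes were the 10 markers, Jph2, up to 4 genes per list with the smallest adjusted p and the 3 most alike genes per marker; Csf1r, Ccl2 and genes at 0 were named beyond this. The markers and lists were chosen with earlier results of these data known. Alternatives and left-out libraries are given at the end. The result of 1 gene of the signalling list is not reported here.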

Additional observations from a re-analysis of the deposited data

Results flagged for a closer look

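In 20 groups of 4 libraries (10 markers in TAC+JP2NT and TAC+GFP) a single library was looked for that stands far from the others of its group; chance gives about 1 in 20. There were 5. For Timd4, TAC+JP2NT replicate 2 stood at 22.9 with the others at 17.4 to 17.9, and TAC+GFP replicate 4 at 18.4 with the others at 7.13 to 7.24. The same TAC+GFP replicate 4 was low for Cd163, at 106 with the others at 149 to 153, and for Adgre1, at 144 with the others at 182 to 188. For Cx3cr1, TAC+JP2NT replicate 3 stood at 100.3 with the others at 40.5 to 46.3. So 3 of the 5 came from TAC+GFP replicate 4, whose reads (10613544) lay within the range of the other libraries, and whose Trem2 was also the lowest of its group at 42.7. The summed B cell markers were highest in this library too, at 107 with the rest of TAC+GFP at 32.5 to 35.8. Their part in these values was not tested.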

How the results depend on the processing

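Each result for the markers and for all genes called was recomputed under 9 other settings and without each of 14 libraries (8 other settings for the interaction, where fitting the compared groups only leaves the same samples). Results for other genes were recomputed only in part. In TAC+GFP against Sham+GFP, Timd4, Folr2, Cd163 and Trem2 were called in all 23, at log2 fold changes of -1.75 to -1.14, -0.68 to -0.55, -0.69 to -0.51 and 1.04 to 1.49. Ccr2 was called in 18, Cx3cr1 in 4 (limma adjusted p = 0.0244 with compared groups only, 0.032 with a spread per group, and 0.0489 and 0.013 without TAC+GFP or TAC+JP2NT replicate 3), Mrc1 in 2 and Gpnmb in 1 (0.79, limma adjusted p = 0.0438, without TAC+GFP replicate 2).

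With 14 separate libraries 1 marker was called in each of TAC+JP2NT against Sham+JP2NT and TAC+JP2NT against TAC+GFP, Timd4 both times. Leaving out 1 library called 4 to 6 markers in TAC+GFP against Sham+GFP, 0 to 1 in each of those 2 comparisons and 0 in the sham comparison and the interaction.

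Over all genes, leaving out 1 library called 5197 to 6696 in TAC+GFP against Sham+GFP, 1868 to 4981 in TAC+JP2NT against Sham+JP2NT, 268 to 1066 in TAC+JP2NT against TAC+GFP, 0 to 1 in the sham comparison and 0 to 53 in the interaction. TAC+JP2NT against TAC+GFP gave 1417 genes (226 higher, 1191 lower) with values as deposited, in place of 812 (363 higher, 449 lower), 158 with the closest TAC replicates averaged, 181 with the compared groups only and 412 with a spread per group; the sham comparison gave 2 with the compared groups only. The interaction gave 6 with no filter, 126 with 14 separate libraries, 4 with the closest TAC replicates averaged and 76 with a spread per group.

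The replicate numbers of the labels do not pair samples: same-numbered libraries of different groups had correlations of -0.171 to 0.0761, and 1 of 14 libraries correlated best with its own number. With the replicate block on 14 separate libraries, 2 markers were called in TAC+JP2NT against Sham+JP2NT (Timd4 -0.92 and Trem2 1.00, limma adjusted p = 0.0259 and 0.00855) and 2 in TAC+JP2NT against TAC+GFP (Timd4 0.97 and Trem2 -0.85, 0.0441 and 0.0449), the call of Mrc1 was gained under overload with GFP (0.41, 0.0147), and the interaction gave 77 genes.

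Signs turned only in differences never called, for which the range over left-out libraries is given. In TAC+GFP against Sham+GFP, Lyve1 ran from -0.104 to 0.084 and was 0.0437 with the block. In TAC+JP2NT against Sham+JP2NT, Lyve1 ran from -0.0172 to 0.267, Ccr2 from -0.0149 to 0.323, Gpnmb from -0.364 to 0.034 and Adgre1 from -0.293 to 0.0835 (0.0057 with the block). Adgre1 ran from -0.26 to 0.116 in TAC+JP2NT against TAC+GFP and from -0.364 to 0.0124 in the interaction, turning without TAC+JP2NT replicate 4. In the sham comparison Lyve1 ran from -0.0798 to 0.165 (-0.00111 with values as deposited), Folr2 from -0.149 to 0.112 (0.00792 with median-of-ratios scaling), Mrc1 from -0.229 to 0.0195 and Gpnmb from -0.0694 to 0.329. The cause was not tested. Timd4, Ccr2, Trem2 and Gpnmb rest on the fewest reads of the markers.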

Other observations

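Some marker levels that belong to no comparison above stand out beside the macrophage genes. The mast cell proteases Mcpt4, Cpa3, Cma1 and Tpsb2 summed to 45.5 to 83.1 in TAC+JP2NT libraries, 42.2 to 53.4 in TAC+GFP libraries, 69.0 to 81.5 in Sham+JP2NT libraries and 66.9 to 74.5 in Sham+GFP libraries, so TAC+GFP lay below both sham groups. Of these 4 genes, 1 was called lower in TAC+GFP against Sham+GFP hearts, beside 24.8% of all genes. This was Mcpt4, a chymase, with 10.7 ± 3.33 in TAC+GFP and 19.3 ± 3.07 in Sham+GFP hearts (log2 fold change -0.83, limma adjusted p = 0.0365). In TAC+JP2NT against TAC+GFP 0 of the 4 were called, beside 6.15% of all genes. The melanocyte enzyme Dct averaged 102 ± 16.4 in TAC+JP2NT hearts, 116 ± 20.4 in TAC+GFP hearts, 57.3 ± 4.17 in Sham+JP2NT hearts and 75.6 ± 16.6 in Sham+GFP hearts (SD, n = 4, 4, 2 and 3), and was called higher with TAC under JP2NT (0.81, limma adjusted p = 0.00968) and under GFP (0.62, limma adjusted p = 0.0124).

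Adipocyte markers were uneven between libraries: 4 genes summed to 3.58 to 145 in TAC+JP2NT libraries and 22.6 to 70.8 in TAC+GFP libraries. Of 3 sinusoidal and venous endothelial markers tested, 1 was called lower in TAC+JP2NT against TAC+GFP, beside 3.4% of all genes. This was Vwf, the von Willebrand factor, which averaged 995 ± 89.7 in TAC+JP2NT and 1580 ± 557 in TAC+GFP hearts (log2 fold change -0.61, limma adjusted p = 0.0498). The 4 listed markers summed to 1429, 1483, 2545 and 1290 in TAC+GFP replicates 1 to 4, so replicate 3 stood far above the rest. The Vwf call, close to the threshold, was not recomputed without single libraries. The hyaluronan receptor Stab2 and the transcription factor Nr2f2 had log2 fold changes of 0.05 and 0.14 (limma adjusted p = 0.969 and 0.585).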
